A study of Mus musculus with 4 samples.

Results

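The miR-133 family of mouse was described here by its 4 mature miRNAs, miR-133a-3p, miR-133a-5p, miR-133b-3p and miR-133b-5p, out of 869 miRNAs detected in any sample. The members were found by exact name in the deposited miRNA tables, and all 4 were present in all 4 samples. The samples came from C2C12, a mouse skeletal muscle line whose myoblasts fuse into myotubes in low-serum medium. In the negative control (NC, 2 samples) the cells differentiated in this medium alone, and in the GAA group (2 samples) it held 20 mM guanidineacetic acid, the direct precursor of creatine. RNA of both groups was taken at day 6 of differentiation. The labels give the line's strain background as 129/Rej. A single line in culture stands for muscle here, without nerve, vessel or load. Nothing in the labels says that the 2 samples of a group came from separate cultures, so the p-values measure the spread between these samples, which may be technical.

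MiR-133 belongs to the myomiRs, the miRNAs enriched in heart and skeletal muscle under the control of factors such as MyoD, myogenin, SRF and MEF2. Each precursor hairpin is cut into a 5p and a 3p arm, of which usually a single arm is kept by Argonaute and guides it to target mRNAs, mainly through the seed, bases 2 to 8. In muscle the 3p arm is the guide of miR-133, and it is known for restraining SRF. The family arises from gene pairs with the miR-1 family, so that miR-133a is transcribed with miR-1a and miR-133b with miR-206. MiR-1a and miR-206 share a seed of their own and favour differentiation.

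The sequences of 2 members were matched in RefSeq (GRCm38.p6), and they are shown with miR-206-3p, the guide arm transcribed with miR-133b, to set the family's seed beside that of its partner. All 3 arms are 22 bases long, are written 5′ to 3′ with the seed in capitals, and lie on the plus strand.
miR-133b-3p (chr1:20682834-20682855): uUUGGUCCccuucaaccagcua
miR-133b-5p (chr1:20682797-20682818): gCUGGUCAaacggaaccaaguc
miR-206-3p (chr1:20679055-20679076): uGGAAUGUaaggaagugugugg

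Mir133b (ENSMUSG00000065480.1) occupies positions 20682769 to 20682887 of chromosome 1 in GRCm38. It lies wholly within exon 3 (20682713 to 20682958) of a transcript of the long non-coding RNA gene Gm28653, which holds no coding sequence or UTR. Mir206 starts upstream on the same strand, with 3686 bases between the hairpins. MiR-133a comes from 2 gene copies that give the same mature arms, so that its reads cannot be assigned to a copy. Mir133a-2 (ENSMUSG00000065460.1) is at 180398379 to 180398482 on chromosome 2, 9254 bases beyond Mir1a-1.

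The deposited values were log2(RPM + 1), where RPM is the reads of a miRNA divided by the mappable reads and multiplied by 1000000. The mappable reads numbered between 4732359 and 5657704 per sample, and the miRNA reads between 1653803 and 3134241. Of the mappable reads, known miRNAs took 33.6% (NC-1), 43.6% (NC-2), 56.3% (GAA-1) and 50.4% (GAA-2). A level in RPM and a share of the summed miRNA RPM therefore give different folds, and both are given. A set of 323 miRNAs reached 10 reads or more in all 4 samples, and their median log2 fold change (GAA over NC) was 0.49 in RPM and 0.02 after division by miRNA reads. The smallest level that 3 reads could show lay between 0.530 and 0.634 RPM. Markers of liver, neurons, blood cells and endothelium, 9 in all, summed to 43.9 and 53.9 RPM in NC and to 86.6 and 60.4 RPM in GAA, most of it miR-9-5p. These markers did not move together. The liver marker miR-122-5p had 0 reads in both NC samples, with 17 and 2 under GAA, and the blood marker miR-223-3p had a single read, in GAA-1. The blood marker miR-142a-5p had 30 and 34 reads in NC against 94 and 76 under GAA. For miR-142a-3p the reads were 6 and 5 against 14 and 9. The red cell markers miR-144-3p and miR-451a lay the other way, with 25 and 9 reads and 10 and 4 reads in NC, against 1 and 4 and 4 and 1 under GAA. The 7 muscle markers, members included, summed to between 10480 and 13715 RPM. The part of the other markers in the results was not tested.

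MiR-133a-3p, the guide arm with more reads, was lower in the GAA myotubes on either scale. It stood at 3059 RPM in NC-1 and 3787 RPM in NC-2, whereas the levels under GAA were 2251 RPM (GAA-1) and 2409 RPM (GAA-2). The 2 groups did not overlap, and the NC samples were the more widely spread. The means were 3423 ± 515 RPM (SD, n = 2) and 2330 ± 112 RPM (SD, n = 2), a ratio of 0.681. As a share of the summed miRNA RPM, it took 0.911% and 0.868% in NC and 0.400% and 0.478% in GAA. Its share in GAA was thus 0.494 of that in NC. Each share rested on 12531 to 17922 reads, and its 95% Wilson interval was far narrower than the gap between groups, from 0.855% to 0.880% in NC-2 and from 0.470% to 0.486% in GAA-2. These intervals cover counting error only.

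MiR-133b-3p, the paralogous guide arm, was less clearly separated. The control samples held 2020 RPM (NC-1) and 2691 RPM (NC-2), and the treated samples 1829 RPM (GAA-1) and 2104 RPM (GAA-2), so that GAA-2 lay above NC-1 and the groups overlapped. As a share of miRNA RPM it took 0.602% and 0.617% in NC and 0.325% and 0.418% in GAA, where the groups did not overlap. The mean share of the control samples was 0.609% ± 0.011 (SD, n = 2) and that of the treated samples was 0.371% ± 0.066 (SD, n = 2), a ratio of 0.609. On this scale the NC samples were nearly equal and the GAA samples were the more widely spread.

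The 5p arms, the passenger strands of the hairpins, were present at low levels and did not move together. MiR-133b-5p stood at 22.1 and 19.7 RPM in NC and at 27.3 and 27.0 RPM in GAA. It was the single member that was higher in GAA in RPM, at 1.30 times the NC mean, but its share of miRNA RPM was 0.00659% and 0.00450% in NC against 0.00485% and 0.00537% in GAA. On that scale the GAA samples lay between the NC samples and the mean was 0.921 of that in NC, so that its direction depended on the divisor. MiR-133a-5p stood at 10.4 and 10.6 RPM in NC and at 8.80 and 4.24 RPM in GAA. Both GAA samples were below both NC samples, but GAA-2, with 24 reads, was far below GAA-1, with 49. Its share was 0.00308% and 0.00242% in NC and 0.00156% and 0.000842% in GAA.

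**Figure D1:**
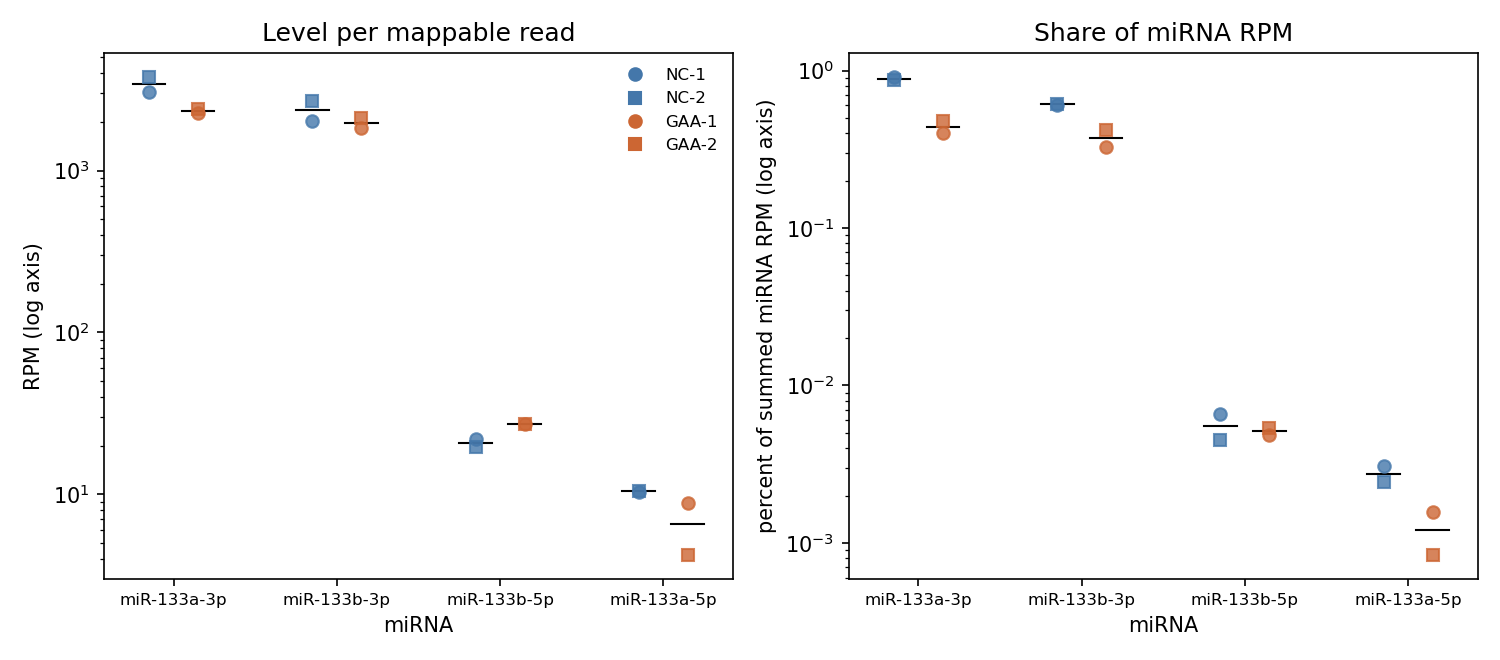
Level of each miR-133 member in each sample, in RPM (left) and as a percent of the summed miRNA RPM (right), both on log axes. Points are samples (circles replicate 1, squares replicate 2) and black lines are group means. The 3p arms lie far above the 5p arms, and miR-133b-5p is higher in GAA in RPM but not as a share.

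With limma over all 869 miRNAs, none of the members passed the thresholds of the study, a false discovery rate (FDR) under 0.01 with an absolute log2 fold change above 1. No miRNA did, 0 of 869 (0%), although 152 of them had an unadjusted p under 0.05. The study itself applied these thresholds to read counts with edgeR, a different test, and reported miR-133a-3p and miR-1a-3p as downregulated by GAA. It also reported both as lower in gastrocnemius muscle of mice given GAA, and a positive correlation between its sequencing and quantitative PCR. In RPM, miR-133a-3p had a log2 fold change (GAA over NC) of -0.55 (standard error 0.19, limma adjusted p = 0.276). It was -0.25 for miR-133b-3p (standard error 0.22, limma adjusted p = 0.524). For the passenger arms it was -0.68 for miR-133a-5p (standard error 0.37, limma adjusted p = 0.403) and 0.37 for miR-133b-5p (standard error 0.17, limma adjusted p = 0.348). Once reads were divided by miRNA reads, the 4 values were -1.02 and -0.73 for the 3p arms of miR-133a and miR-133b, and -1.10 and -0.09 for their 5p arms. The lowest limma adjusted p among them was then 0.133, for miR-133a-3p, and again no member passed. A single miRNA outside the family, miR-208b-3p, did pass on that scale, with 17 and 8 reads in the GAA samples. On the same scale 70 miRNAs had an unadjusted p under 0.05. The change of miR-133b-3p in RPM rested largely on NC-2, without which it was -0.04. That of miR-133a-5p was -0.23 without GAA-2 and -1.13 without GAA-1.

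Set against all miRNAs, most of the family lay at the lower end. Both GAA samples were below both NC samples in RPM for 2 members, miR-133a-3p and miR-133a-5p, and for 9 of the 323 miRNAs that reached 10 reads throughout (2.79%). Both were above for miR-133b-5p, and for 64.4% of the 323. By share of miRNA RPM 3 members were lower without overlap, all but miR-133b-5p, against a background of 19.8%. None was higher, against a background of 22.9%. Of the 323 miRNAs, 4 had a lower log2 fold change than miR-133a-3p, 3 than miR-133a-5p, 10 than miR-133b-3p and 113 than miR-133b-5p. After division by miRNA reads these numbers were 4, 3, 10 and 109. Relative to the median of the 323, the RPM fold changes were -1.03 for miR-133a-3p, -1.16 for miR-133a-5p, -0.74 for miR-133b-3p and -0.12 for miR-133b-5p.

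**Figure D2:**
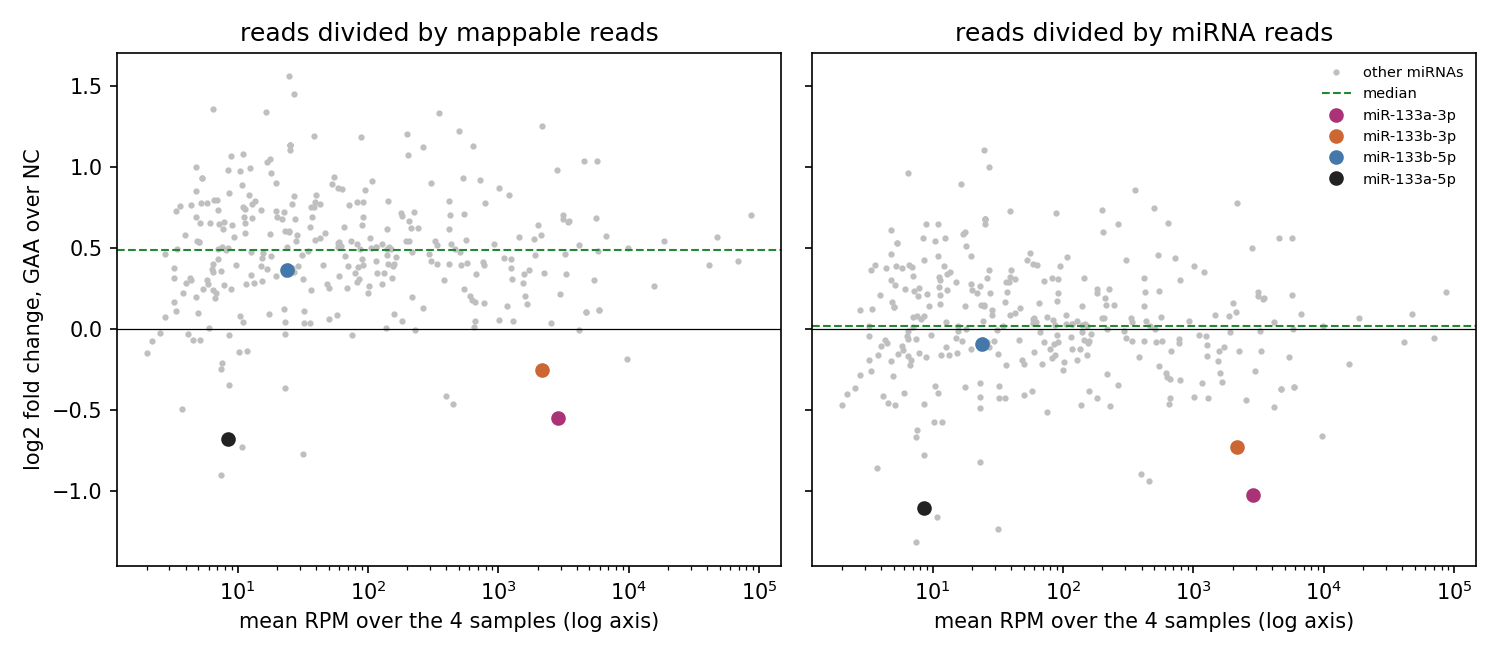
Log2 fold change of GAA over NC (vertical axis) against mean RPM (horizontal log axis) for the 323 miRNAs that reached 10 reads in all samples, with reads divided by mappable reads (left) or by miRNA reads (right). The dashed line is the median, at 0.49 and 0.02. Both 3p arms and miR-133a-5p lie far below it on both sides, and miR-133b-5p lies close to it.

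The family as a whole took a smaller part of the miRNA pool in GAA. The 4 members together made up 1.52% and 1.49% of the miRNA RPM in NC and 0.731% and 0.902% in GAA. The group means, 1.51% ± 0.02 (SD, n = 2) and 0.817% ± 0.121 (SD, n = 2), differed by a ratio of 0.542. An exact two-sided permutation test gave p = 0.333, the smallest value that 2 samples against 2 allow. In RPM the sum was 5112 and 6509 in NC against 4116 and 4545 in GAA, a mean ratio of 0.745 (exact permutation p = 0.333). Almost all of it was the 3p arms, and the 5p arms together reached between 30.2 and 36.1 RPM. In a bulk culture, the number of myotubes and the copies of a miRNA in each myotube cannot be told apart. The study reported more myotubes positive for myosin heavy chain with GAA by staining, which these libraries do not measure.

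The balance of the paralogs does not depend on the divisor, since both are counted in the same sample. MiR-133b supplied 39.8% (95% Wilson interval 39.2% to 40.4%) of the 3p reads of NC-1 and 41.5% (41.0% to 42.1%) of those of NC-2. Its part was larger with GAA, at 44.8% (44.2% to 45.5%) for GAA-1 and 46.6% (46.0% to 47.2%) for GAA-2. Thus miR-133a-3p had more reads in all 4 samples, by 1.51 and 1.41 times in NC and by 1.23 and 1.14 times in GAA. The intervals cover counting error only, and a ratio of reads need not be a ratio of molecules. How reads that fit both near-identical 3p arms were assigned is not given in the sources used here. The log2 ratio of miR-133b-3p to miR-133a-3p averaged -0.55 ± 0.07 (SD, n = 2) without GAA and -0.25 ± 0.07 (SD, n = 2) with it. The difference of 0.30 was larger than the spread of either group, the groups did not overlap (exact permutation p = 0.333, the smallest possible), and it stayed between 0.25 and 0.35 with any sample left out.

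In the 5p arms the paralogs were in the opposite order. MiR-133b supplied 68.1% (60.6% to 74.8%) and 65.0% (56.9% to 72.4%) of the 5p reads in NC, and 75.6% (69.2% to 81.0%) and 86.4% (80.6% to 90.7%) in GAA. The groups did not overlap here either, with a difference of 1.16 in the log2 ratio (exact permutation p = 0.333). These percentages rested on 143 to 201 reads per sample, and the Wilson intervals of GAA-1 and the NC samples overlapped. Without GAA-2 the difference was 0.64, and without GAA-1 it was 1.68.

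The arms of each hairpin were far from equal. For each 5p read of miR-133a there were 295 and 358 reads of its 3p arm in NC, against 256 and 568 with GAA. The 3p reads of miR-133b for each 5p read numbered 91.3 and 137 without GAA and 67.0 and 77.8 with it. The 5p arm thus made up 0.337% and 0.278% of the miR-133a reads in NC and 0.390% and 0.176% in GAA, where the 2 GAA samples lay on either side of the NC samples. The difference of the log2 ratio of 5p to 3p was -0.23 (exact permutation p = 1), and it turned to 0.35 without GAA-2. For miR-133b the 5p arm made up 1.08% (95% Wilson interval 0.90% to 1.31%) and 0.725% (0.592% to 0.887%) of the NC reads. With GAA it made up 1.47% (1.26% to 1.72%) and 1.27% (1.08% to 1.48%), above both NC samples. The log2 ratio was higher in GAA by 0.63 (exact permutation p = 0.333), by 0.34 without NC-2 and by 0.92 without NC-1. The intervals of NC-1 and the GAA samples overlapped.

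**Figure D3:**
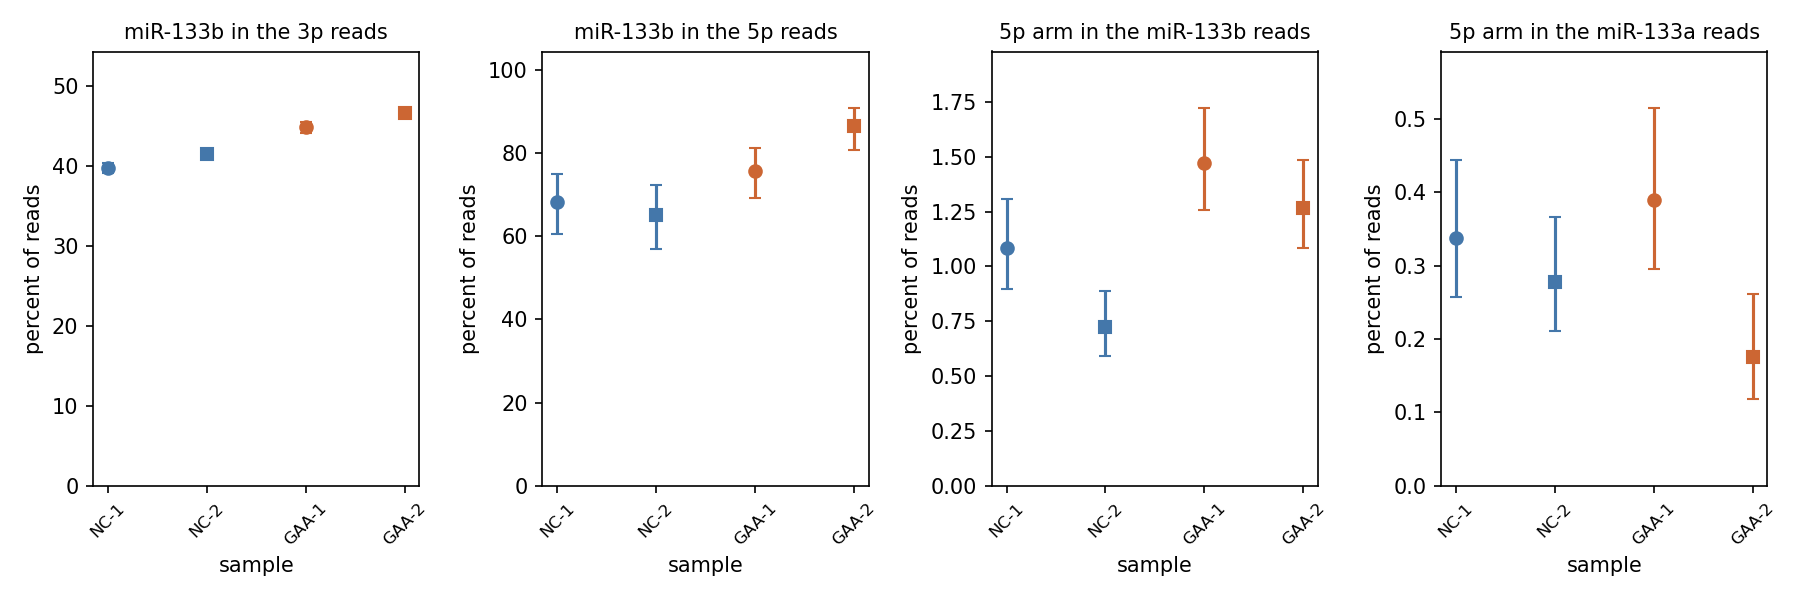
Balance of paralogs and arms in each sample, in percent of reads, with 95% Wilson intervals as bars. From left to right, the panels show miR-133b among the 3p reads, miR-133b among the 5p reads, the 5p arm among the miR-133b reads and the 5p arm among the miR-133a reads, each with its own scale from 0. The GAA samples lie above the NC samples in the first 3 panels.

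Arms were paired where their names differ only in 5p and 3p, and in 85 such pairs both had at least 10 reads in every sample. Hairpins with a copy number in the name of a single arm, such as those of miR-125b, were left out. Over the 85 pairs the less abundant arm made up a median of 5.52% of the 2. It made up a lower percentage than in miR-133a in 8 pairs and than in miR-133b in 25. The 5p to 3p ratio was higher in both GAA samples than in both NC samples in 8 pairs, miR-133b among them (9.41%), and lower in 24.7%. By size of the difference in either direction, miR-133b came at place 13 of the 85 and miR-133a at place 47. The median size of the difference was 0.25.

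The guide arms transcribed with the family were also lower in GAA. MiR-1a-3p, the partner of miR-133a, stood at 34.3 and 46.1 RPM in NC and at 27.1 and 19.3 RPM in GAA. The pair is cut from common primary transcripts, and for each of its reads miR-133a-3p had 89.1 and 82.2 reads in the control samples and 83.0 and 125 in the treated samples. Ligation to adaptors differs between miRNA sequences in such libraries, so that a ratio of reads need not be a ratio of molecules, and only its difference between groups was compared. The log2 ratio of miR-1a-3p to miR-133a-3p differed by -0.25 (exact permutation p = 0.667), with overlapping groups, and by 0.04 without GAA-2. MiR-206-3p, the partner of miR-133b, stood at 494 and 553 RPM in NC and at 406 and 355 RPM in GAA. There were 4.09 and 4.86 reads of miR-133b-3p for each of its reads in NC and 4.51 and 5.92 in GAA. Its log2 ratio to miR-133b-3p differed by -0.21, again with overlapping groups (exact permutation p = 0.667), and by -0.02 without GAA-2. With 2 samples per group the exact permutation test cannot go below p = 0.333, so it cannot decide whether the balance of either pair differed.

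Of 17 arms of the partners and of other muscle miRNAs (miR-208, miR-499 and miR-486, carried in myosin and ankyrin genes), 10 were detected in all 4 samples. The 5p arms of miR-486a and miR-486b carry identical values and were counted once, which leaves 9. None passed the test in RPM. Both GAA samples were below both NC samples for 5 of the 9 in RPM (miR-1a-3p, miR-1a-1-5p, miR-206-3p, miR-208b-3p and miR-499-5p) and above for 2, miR-486a-3p and miR-486b-3p, where the backgrounds over the 323 miRNAs were 2.79% and 64.4%. By share of miRNA RPM 7 were lower and 2 higher, beside 19.8% and 22.9%. Of the 9 arms, 7 reached the 10 reads in all samples on which these backgrounds rest. MiR-1a-1-5p and miR-208b-3p, both counted as lower on either scale, did not reach them. The median log2 fold change of all 9 was -0.46 in RPM and -0.86 after division by miRNA reads, against 0.49 and 0.02 for the 323. MiR-208b-3p had the lowest, at 18.7 and 17.8 RPM in NC against 3.05 and 1.41 RPM in GAA, where it rested on 17 and 8 reads.

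**Figure D4:**
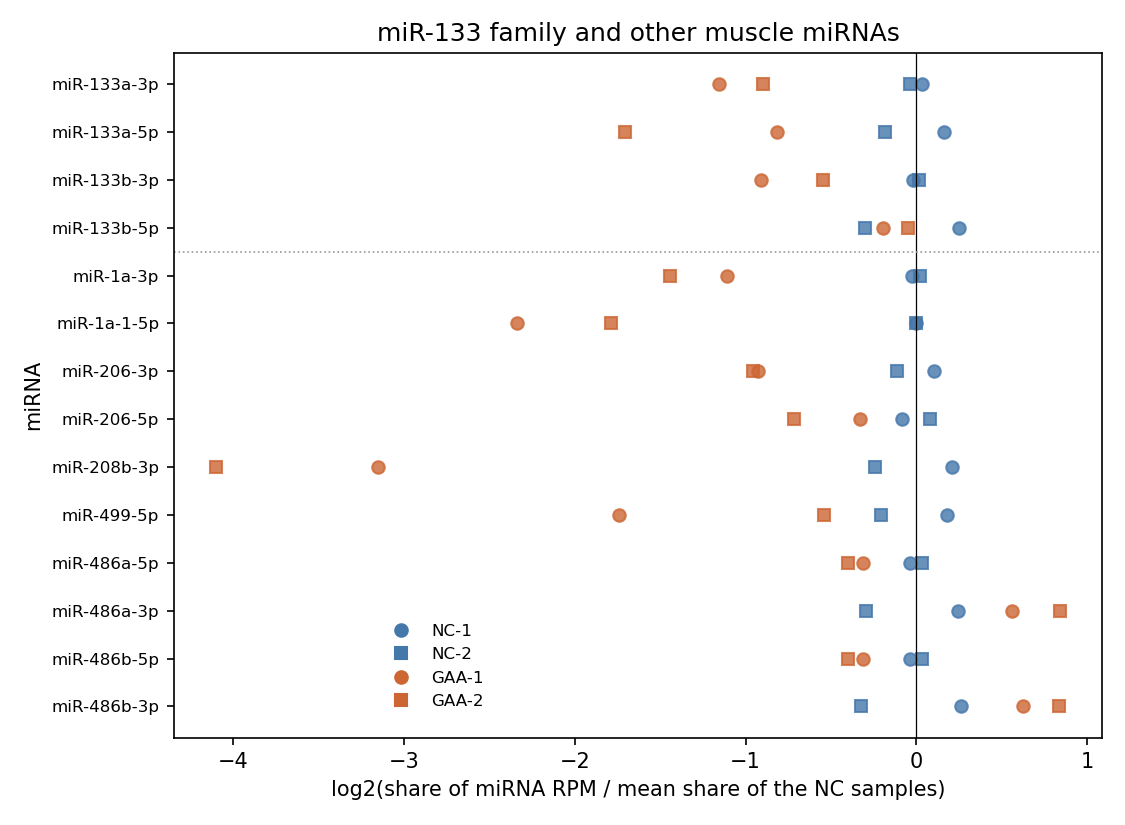
Share of miRNA RPM in each sample relative to the mean share of the NC samples, on a log2 axis, for the 4 members (above the dotted line) and the 10 other muscle arms detected in all samples. Circles are replicate 1 and squares replicate 2. The GAA points lie left of the NC points in 3 members, from -1.71 to -0.54, and among the other arms they lie right of them for miR-486a-3p and miR-486b-3p.

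By mean RPM over the 4 samples, miR-133a-3p ranked 28 of the 869 miRNAs, miR-133b-3p 33, miR-133b-5p 203 and miR-133a-5p 261. MiR-133a-3p held place 19 in both NC samples and places 36 and 31 in the GAA samples, and miR-133b-3p held places 29 and 27 in NC and 42 and 34 in GAA. MiR-133b-5p held places 188 and 197 in NC and 213 and 197 in GAA. MiR-133a-5p moved from places 231 and 235 to 279 and 317. The neighbours of miR-133a-3p were miR-182-5p above and miR-151-3p below, at means of 2978 and 2826 RPM against 2877 RPM. Those of miR-133b-3p were miR-146b-5p and miR-23b-3p, at 2163 and 2127 RPM against 2161 RPM. MiR-652-3p and miR-210-5p stood beside miR-133b-5p, and miR-138-5p and miR-1839-3p beside miR-133a-5p. The ranges of all 4 members overlapped with those of their neighbours, so that these orders lie within the spread of the samples.

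The profile over the 4 samples that was closest to miR-133a-3p, after each miRNA was centred on its own mean of log2(RPM + 1), was that of miR-210-3p, a miRNA known for its induction by hypoxia (Euclidean distance 0.148). It stood at 393 and 519 RPM in NC and 324 and 353 RPM in GAA. Next came miR-206-3p (0.244), miR-133b-3p (0.316), miR-1843a-3p (0.444) and miR-1a-3p (0.468), so that 3 of the 5 closest of the 323 miRNAs were its paralog and the partners of the family. MiR-210-3p was also the closest to miR-133b-3p (0.176), followed by miR-582-3p (0.250), let-7c-5p (0.271), miR-1843a-3p (0.312) and miR-503-5p (0.316). MiR-133a-3p came at place 6 from there, miR-206-3p at 17 and miR-1a-3p at 75. These distances rest on 4 samples that also differ in the part of their reads that are miRNA, and they are given as a description.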

How the data were processed

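Small RNA of C2C12 myotubes was sequenced on an Illumina HiSeq instrument in 2 NC and 2 GAA samples, grouped by their titles. The authors filtered the reads, mapped them to the mouse genome (GRCm38), quantified miRBase miRNAs by miRDeep2 and deposited log2 values, log2(RPM + 1), without a row for a miRNA without reads, which was set to 0 here. The base was read from the values. Reads were recovered from the step of 1 read, and between 95.4% and 96.0% of the values in a sample came out whole within 0.02. Reads of all 4 members were whole in all samples. The 3p arms of the paralogs are near-identical, and how reads fitting both were assigned is not given in the sources used here.

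The GAA and NC groups were tested by limma 3.58.1 under R 4.3.3 (mean-variance trend, pseudocount of 1 RPM, no filter, condition as the only term) with Benjamini-Hochberg adjustment over all miRNAs. A fold change on this scale understates that of miRNAs with few reads. Ratios and shares were tested by exact two-sided permutation over samples. Intervals are 95% Wilson intervals, and 3 reads served as the floor. The fit was tested on simulated data only for changes larger than those of the members, so its power at their size was not tested. The labels name no batch. The members, lists and rules for the named miRNAs (members, partners and muscle miRNAs, the 5 closest profiles among miRNAs that reached 10 reads in all samples, neighbours in level) were chosen with earlier results of these data known. The alternatives tried were other divisors, a pseudocount of 0.1 RPM, filters of 10 reads or 1 RPM in every sample, no trend, a replicate block and each sample left out in turn. No count model was fitted to the recovered reads. Sequences came from RefSeq (GRCm38.p6) and positions from GENCODE M21 (GRCm38).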

Additional observations from a re-analysis of the deposited data

How the results depend on the processing

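The number of miRNAs past the thresholds was 0 in RPM. It was 1 after division by miRNA reads, 1 with median-of-ratios factors, 1 with a divisor that left out the 5 most abundant, and 0 with each sample left out. MiR-133b-5p changed direction with these 3 divisors, to -0.092, -0.14 and -0.0090 on the log2 scale, and its share differed by -0.09, against 0.38 with mappable reads as the divisor and -0.37 to 0.18 with 1 sample left out. MiR-133a-3p passed with none of the 3 other divisors. Its lowest limma adjusted p among them was 0.0167, at a log2 fold change of -0.94, with the 5 most abundant left out. With mappable reads as the divisor the share difference of miR-133a-3p moved from -1.02 to -0.55 and that of miR-133b-3p from -0.73 to -0.25. With 1 sample left out, the arm balance of miR-133a ranged from -0.80 to 0.35 and the ratio of miR-1a-3p to miR-133a-3p from -0.55 to 0.045. The cause of these shifts was not tested, beyond the share of miRNA reads given above.

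The replicate numbers are shared by both groups, but nothing says that they pair samples, and the deviations of same-numbered samples correlated at -0.15 over 323 miRNAs. With the replicate block alone 0 miRNAs passed and miR-133a-3p kept -0.55 (limma adjusted p = 0.577). With the block and division by miRNA reads together 6 passed, among them miR-133a-3p at -1.02 (limma adjusted p = 0.00481), and miR-133b-5p stood at -0.092. Of 119 recomputed values, 104 kept their direction and side of the threshold or, where no threshold applied, moved by less than the spread of the replicates. With 2 samples per group no single ratio could reach a p below 0.333, and the 5p arms rested on 24 to 153 reads.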
